A study of Caenorhabditis elegans with 6 samples.

Results

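Ion channels are membrane proteins that let ions pass when a ligand, a change in voltage or a mechanical force opens them. In Caenorhabditis elegans they carry the signals of neurons, the contractions of body wall and pharyngeal muscle, the rhythms of feeding and defecation, and the senses of touch, smell and temperature. Many are receptors of the Cys-loop family, in which acetylcholine, GABA, glutamate or an amine opens a pore for cations or for chloride. The channel genes described here are the rows of a deposited gene table whose Gene Ontology annotation holds the term "ion channel activity" itself, without the rows named wrt- or inx-. The rule found 48 genes among the 5792 of the table, and 1 row with the term, wrt-3, was left out by name. Another 45 genes of the table carry only a narrower ion channel term, such as potassium channel activity, and were not members.

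The study measured polyadenylated RNA of whole animals at L4, the last larval stage, in 3 WT and 3 TGQ samples. The WT samples bear the strain name SJ4100, known as a reporter strain with GFP under the hsp-6 promoter, and the TGQ samples bear the strain name TGQ. Both groups grew from hatching at 20 °C on OP50 bacteria. The sources used here do not say how TGQ animals were derived, whether they carry the reporter, or whether replicates were separate cultures. The p-values therefore describe only the variation among these 6 samples, and that may be technical. The title of the series places the comparison in a project on inherited elevation of mitochondrial DNA, the mitochondrial unfolded protein response and aging.

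The table gives a normalised expression signal per gene and sample without naming its unit. It lists only genes that had passed the authors' own test on these same samples, with adjusted p-values up to 0.0499 in the authors' deposited table. Every channel gene had therefore already been selected for a difference, and channel genes that the table does not list were not analysed here. The signals of the 5792 genes summed to between 327792 and 349508 in WT and between 282762 and 293887 in TGQ. WT replicates 1 and 2 lay at opposite ends of the second principal component, which held 6.6% of the variance, at 15.6 and -12.8, with the other samples between -4.99 and 7.13. In 30 of the 48 channel genes WT replicate 1 had the highest of the WT signals, as it did in 67.5% of all genes of the table. WT replicate 2 had the lowest in 37 of the 48, and its share over all genes was not computed. The log2 signal of WT replicate 1 lay a median of 0.27 above the mean of the other WT samples for the channel genes and 0.24 above it for all genes.

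The ion channel mRNAs that the table lists were almost uniformly higher in TGQ. By the fold change in the authors' deposited table, 46 of the 48 were higher, where 46.5% of all listed genes were, and the 2 lower genes were lgc-21 and lgc-31. The summed signal of the 48 genes was 219, 163 and 190 in WT replicates 1, 2 and 3, and 283, 287 and 272 in the TGQ replicates. Every TGQ sum lay above every WT sum, and the WT samples spread more widely than the TGQ samples. The ratio of the mean TGQ signal to the mean WT signal had a median of 1.79 over the 48 genes and of 0.85 over the table. Groups were separate, with no shared range, for 46 of the 48 channel genes, with TGQ above WT for 44 and below it for 2, and they overlapped for gon-2 and itr-1. Over the table the groups did not overlap for 91.3% of genes, with TGQ above for 44.3% and below for 47%.

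Changes were tested with limma on log2(signal + 1) for genes with a signal of at least 1 in at least 3 samples, and a gene was called at a Benjamini-Hochberg adjusted p under 0.05 over all genes tested. Of the 39 channel genes tested, 37 were called higher in TGQ, 1 was called lower and 1 was not called. Over the 5540 genes tested, 90.2% were called, 45.6% higher and 44.6% lower. Most genes of the table were thus called, and in nearly equal numbers in each direction, while the calls among the channel genes were nearly all in 1 direction. The median log2 change was 0.54 for the channel genes and -0.22 for all genes tested. Of the 39, 4 passed the filter through TGQ samples alone (acc-2, acr-24, kvs-1 and lgc-46). Another 3 (cca-1, egl-2 and trp-2) had 1 or 2 WT signals of at least 1 and passed only with their TGQ signals. Among the 32 channel genes with a signal of at least 1 in every WT sample, 30 were called higher, against 43.2% of the 5300 genes that meet the same condition. Leaving out single samples gave between 32 and 37 higher calls. Without WT replicate 1, 37 were called higher and 0 lower, beside 45.5% and 41.1% of all genes tested. Without WT replicate 2, 33 were called higher and 2 lower, beside 41.1% and 44% of all genes tested, and the median log2 change of the channel genes was 0.47. The fewest higher calls, 32, came without WT replicate 3 and without TGQ replicate 2.

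**Figure D1:**
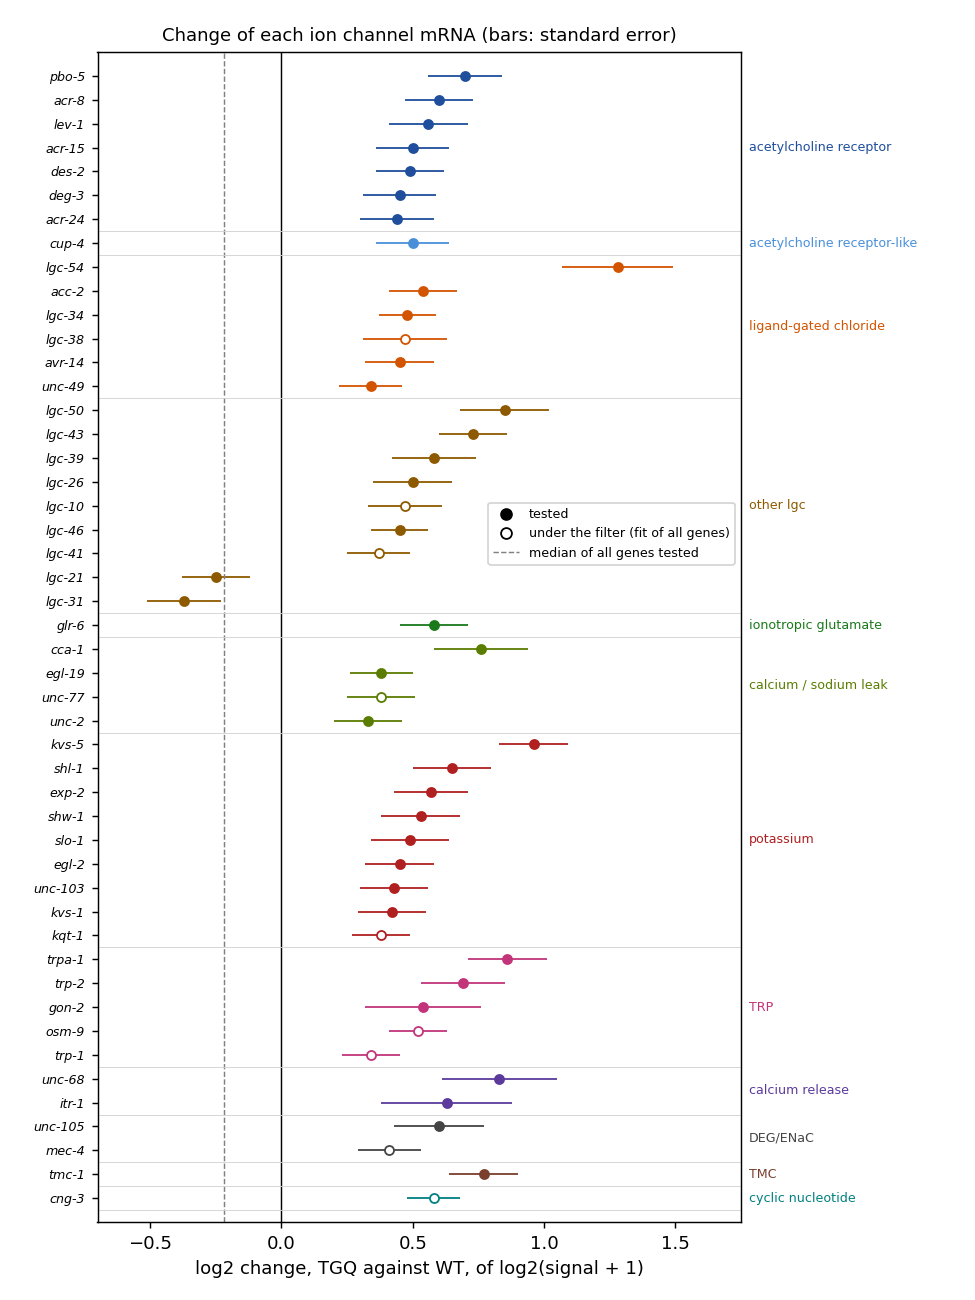
Log2 change of each of the 48 ion channel mRNAs between TGQ and WT on the log2(signal + 1) scale, with its standard error, grouped by channel class. Filled points are genes that passed the filter, open points are the 9 that did not and come from the fit of all 5792 genes, and the dashed line is the median of all genes tested at -0.22; only lgc-21 and lgc-31 lie below 0.

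The size of the rises was moderate. A single gene, lgc-54, had a fitted log2 change of at least 1, and the mean signal at least doubled for 15 of the 48, 7 of which lay under the filter on low signals. The mean WT signal was under 5 for 39 of the 48 genes and under 1 for 14. The added 1 in the log scale understates the changes of such genes: with 0.1 added instead, the median log2 change was 0.74. Since RNA of whole animals was measured, more cells of a type and more RNA per cell cannot be told apart. The sources used here do not say whether the signal is divided by transcript length, so signals are not compared between genes.

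**Figure D2:**
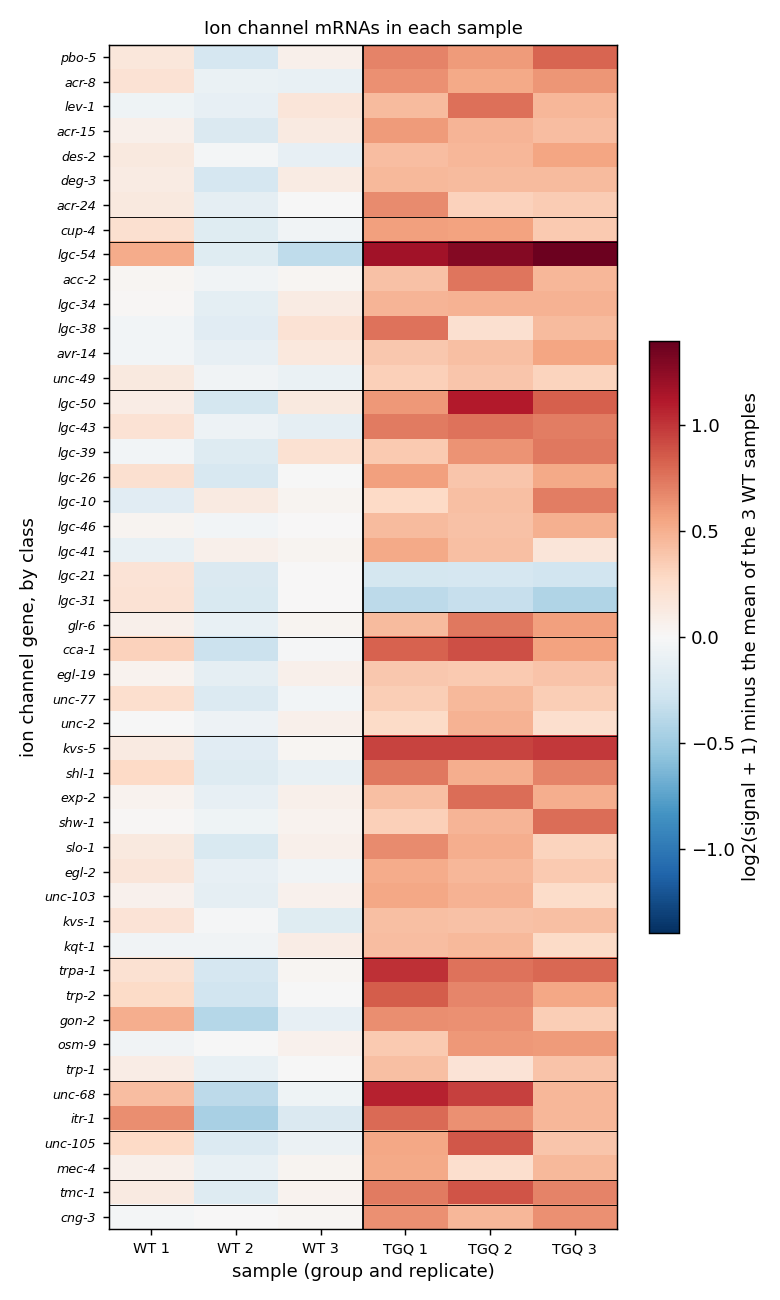
Log2(signal + 1) of the 48 ion channel genes (rows, by class) in the 6 samples (columns), less the mean of the 3 WT samples of the gene. Red is above and blue below that mean; the TGQ columns are red in 46 rows, and WT 1 is the reddest WT column for gon-2, itr-1, lgc-54 and unc-68.

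The table listed 7 of 31 annotated genes of nicotinic-type acetylcholine receptors and related cation channels. All 7 were called higher, with a median log2 change of 0.50 and a range of 0.44 to 0.70. Summed over them, the signal averaged 17.6 ± 2.24 in the WT samples and 29.1 ± 0.07 in the TGQ samples (SD, n = 3). pbo-5 encodes a proton-gated cation channel subunit that triggers the posterior body contraction of the defecation cycle, and its signal was 4.5, 3.19 and 4.17 in WT and 6.95, 6.45 and 7.66 in TGQ. All TGQ samples lay above all WT samples, and the log2 change was 0.70 (SE 0.14, limma adjusted p = 0.00194). acr-8, a subunit gene related to the levamisole-sensitive receptors of muscle, read 2.56, 1.91 and 1.88 in WT and 3.85, 3.48 and 3.77 in TGQ. The groups were again apart, with a log2 change of 0.60 (SE 0.13, limma adjusted p = 0.00291). lev-1 encodes a subunit of the levamisole-sensitive receptor at the neuromuscular junction and stood at 3.53, 3.38 and 4.34 in WT and at 5.43, 7.08 and 5.53 in TGQ. It rose by a log2 change of 0.56 (SE 0.15, limma adjusted p = 0.00611), with TGQ replicate 2 the highest sample.

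deg-3 and des-2 encode subunits that assemble into one choline-sensitive receptor, and the genes lie next to each other on the minus strand of chromosome V, at 11412870 to 11415159 and 11415272 to 11421705 in WBcel235 (the sources used here do not name the authors' build). Their changes were close, with log2 values of 0.45 for deg-3 and 0.49 for des-2 and adjusted p-values of 0.013 and 0.00617 by limma. The mean signals went from 2.2 ± 0.433 to 3.33 ± 0.0252 for deg-3 and from 2.55 ± 0.322 to 3.95 ± 0.196 for des-2 (SD, n = 3). The remaining members of the class were acr-15, with a log2 change of 0.50, and acr-24, with 0.44. acr-24 reached a signal of at least 1 only in TGQ samples, and its call was lost without WT replicate 2 (adjusted p = 0.053). cup-4, which encodes an acetylcholine receptor-like protein needed for endocytosis by coelomocytes, read 8.63, 6.34 and 6.99 in WT and 11.28, 11.17 and 9.65 in TGQ. The groups did not overlap, and cup-4 was called higher with a log2 change of 0.50 (SE 0.14, limma adjusted p = 0.00946).

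The table listed 6 of 23 annotated genes that were placed by name among the chloride channels gated by glutamate, GABA, acetylcholine or amines. All 6 were higher in TGQ, and the 5 tested were all called. The largest rise of any channel gene tested was that of lgc-54, a ligand-gated channel gene on chromosome V at 6840217 to 6846607 (minus strand, WBcel235). Its signal was 5.77, 3.17 and 2.69 in WT and 9.62, 10.5 and 11.18 in TGQ. WT replicate 1 was the highest of the WT samples and still lay below all TGQ samples. The mean signal was 2.69 times as high in TGQ, with a log2 change of 1.28 (SE 0.21, limma adjusted p = 0.000633), and of 1.54 without WT replicate 1. In the annotation lgc-54 has 1568 exon bases. Exons of T15B7.1 and hpo-8 on the opposite strand overlap them by 188 bases. That is a sum over both neighbours, in which a base under both counts more than once. The mean signal of T15B7.1 was 92.1 in WT and 164 in TGQ, and whether reads are shared between these genes was not tested.

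lgc-34, a channel gene of the same class, read 21.49, 19.27 and 23.04 in WT and 29.82, 30.06 and 30.18 in TGQ. The TGQ values were nearly equal and all above WT, and the log2 change was 0.48 (SE 0.11, limma adjusted p = 0.00377). acc-2, whose product is an acetylcholine-gated chloride channel, was low throughout, at 0.53, 0.45 and 0.53 in WT and 1, 1.53 and 1.07 in TGQ. The groups were apart and the log2 change was 0.54 (SE 0.13, limma adjusted p = 0.00398), although the gene passed the filter through its TGQ values alone. avr-14, a glutamate-gated chloride channel gene and target of ivermectin, rose with a log2 change of 0.45. unc-49 encodes the GABA receptor that relaxes body wall muscle, and its mean signal went from 11.8 ± 1.08 to 15.2 ± 0.49 (SD, n = 3), a log2 change of 0.34 (adjusted p = 0.0219, limma). The call of unc-49 was lost when TGQ was rescaled to the authors' fold changes, a shift of -0.131 in log2 called the authors' scaling here (adjusted p = 0.098). It was also lost without WT replicate 3 (0.0858), TGQ replicate 1 (0.0506) or TGQ replicate 2 (0.0851). lgc-38 did not pass the filter.

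The other lgc genes, a large family of Cys-loop channels of which several ligands remain unassigned, held both genes that went down. The table listed 12 of 56 annotated lgc genes, and 9 of them were not already placed in the class above. That split was made by gene name, so the 9 may include channels with the same ligands. Of these 9, 7 were tested, 5 were called higher and 1 lower. lgc-50 encodes a serotonin-gated cation channel and read 1.79, 1.18 and 1.85 in WT and 2.93, 4.6 and 3.62 in TGQ. All TGQ samples were higher, and the log2 change was 0.85 (SE 0.17, limma adjusted p = 0.00165). lgc-43 went from 4.94, 3.89 and 3.72 in WT to 7.56, 7.72 and 7.45 in TGQ. The TGQ values lay within a narrow band well above WT, with a log2 change of 0.73 (SE 0.13, limma adjusted p = 0.00104). lgc-39 read 2.42, 2.09 and 3.08 in WT and 3.52, 4.41 and 4.86 in TGQ, again with no overlap, and rose by 0.58 on the log2 scale (SE 0.16, limma adjusted p = 0.00716). lgc-26 and lgc-46 rose by 0.50 and 0.45 on the log2 scale, the latter passing the filter in TGQ only.

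lgc-31 read 4.06, 2.79 and 3.42 in WT and 2.42, 2.51 and 2.27 in TGQ. All TGQ samples were below all WT samples, and the gene was called lower with a log2 change of -0.37 (SE 0.14, limma adjusted p = 0.0306). The call was lost in 5 of the 6 omissions of a single sample. The log2 change was -0.27 without WT replicate 1 (adjusted p = 0.0851), -0.37 without WT replicate 3 (0.0769), and -0.37, -0.39 and -0.34 without TGQ replicates 1, 2 and 3 (0.0599, 0.0601 and 0.0876). Without WT replicate 2 the gene was still called lower, with a log2 change of -0.48 (adjusted p = 0.0144). Exons of F21A3.3 on the opposite strand overlap 53 of the 2133 exon bases of lgc-31, and the signal of F21A3.3 went from 31.5 in WT to 22 in TGQ. lgc-21 read 37.54, 28.27 and 32.87 in WT and 27.34, 27.54 and 26.88 in TGQ. The lowest WT sample lay just above the highest TGQ sample, and lgc-21 was not called (log2 change -0.25, SE 0.13, adjusted p = 0.0793, limma). A lower call was reached without WT replicate 2 (adjusted p = 0.0222) and under the authors' scaling (adjusted p = 0.0179).

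**Figure D3:**
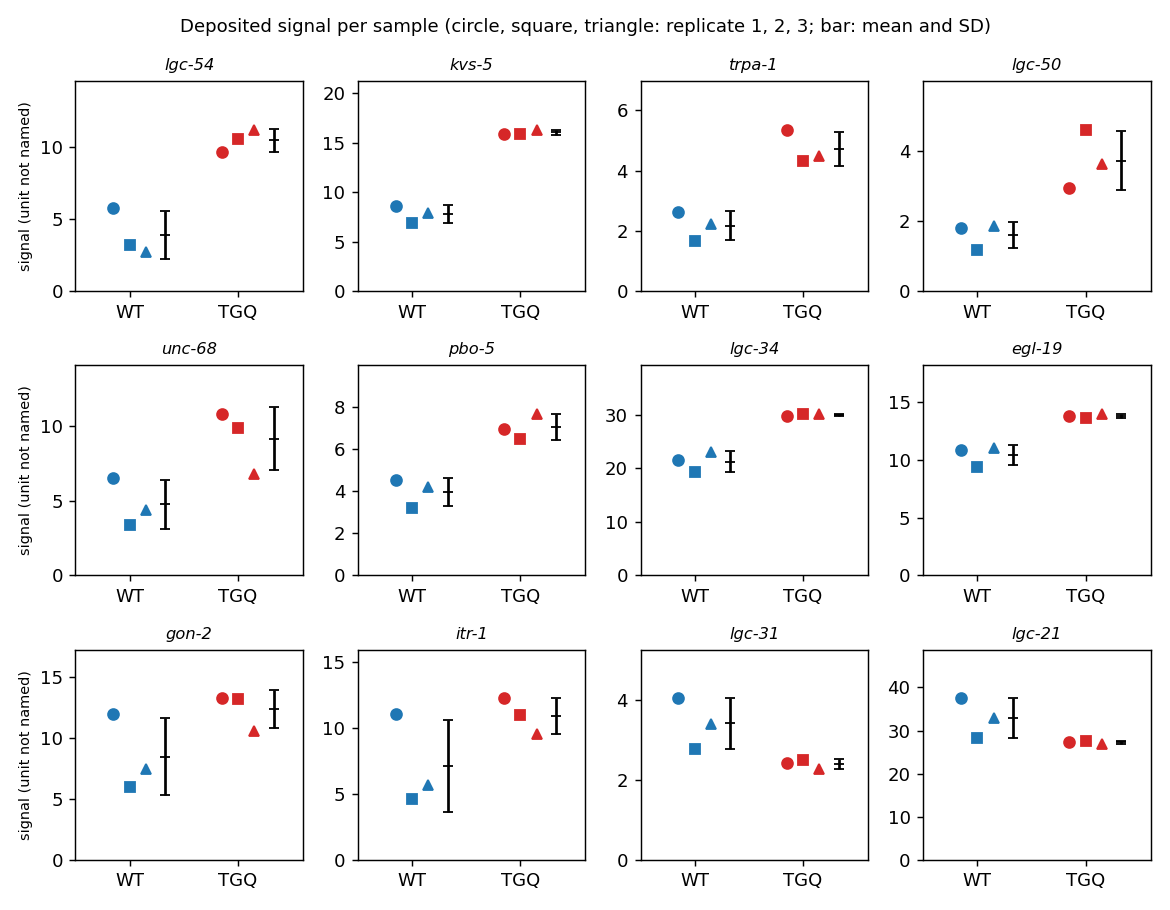
Deposited signal of 12 ion channel genes in each sample, with replicates 1, 2 and 3 as circle, square and triangle, and the mean and SD of each group beside them. In 8 panels all TGQ samples lie above WT, in gon-2 and itr-1 WT replicate 1 (at 12 and 11.08) reaches the TGQ samples, and in lgc-31 and lgc-21 the TGQ samples lie below WT.

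A single ionotropic glutamate receptor gene was a member. glr-6, of the AMPA type, read 2.61, 2.19 and 2.53 in WT and 3.66, 4.75 and 4.1 in TGQ. The groups did not overlap, and the log2 change was 0.58 (SE 0.13, limma adjusted p = 0.00328).

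The table listed 5 of 9 annotated genes of voltage-gated calcium channels and sodium leak channels, and all 5 were higher in TGQ. cca-1 encodes the T-type channel that helps start action potentials in the pharynx, and its signal was 1.72, 0.76 and 1.15 in WT and 2.85, 3.07 and 2.21 in TGQ. The groups were apart, with a log2 change of 0.76 (SE 0.18, limma adjusted p = 0.00344), although the gene passed the filter only with its TGQ values. egl-19, the L-type channel gene needed for muscle contraction, read 10.84, 9.44 and 11.03 in WT and 13.81, 13.68 and 14.02 in TGQ. Its TGQ values were nearly equal and above WT, and the log2 change was 0.38 (SE 0.12, limma adjusted p = 0.0143). unc-2, the gene of the presynaptic calcium channel that drives transmitter release, stood at 4.15, 3.94 and 4.45 in WT and at 5.22, 6.23 and 5.07 in TGQ. It was called higher by a narrow margin with a log2 change of 0.33 (SE 0.13, limma adjusted p = 0.0358). With the authors' scaling, which applies the same shift to all genes, limma called neither egl-19 (adjusted p = 0.0612) nor unc-2 (adjusted p = 0.125). The limma call of unc-2 was also lost without any one of WT replicates 2 and 3 and TGQ replicates 1 and 2, with adjusted p-values from 0.0558 to 0.158. In the authors' own test, whose tool is not named, the deposited adjusted p was 7.34e-06 for egl-19 and 0.00031 for unc-2.

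Among the members, the deposited change stood above that of the signals for these same 2 genes. The log2 change in the authors' deposited table was 0.69 for egl-19 and 0.60 for unc-2, while the log2 ratio of the mean signals was 0.41 and 0.40. The authors' change thus lay 0.28 and 0.20 above that of the signals, whereas over the 3716 genes with both means at least 5 the median difference was -0.131, and it lay within 0.2 of that median for 97.9% of them. Among the other 46 channel genes the authors' change was at or below that of the signals. What made the columns differ for egl-19 and unc-2 was not tested.

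**Figure D4:**
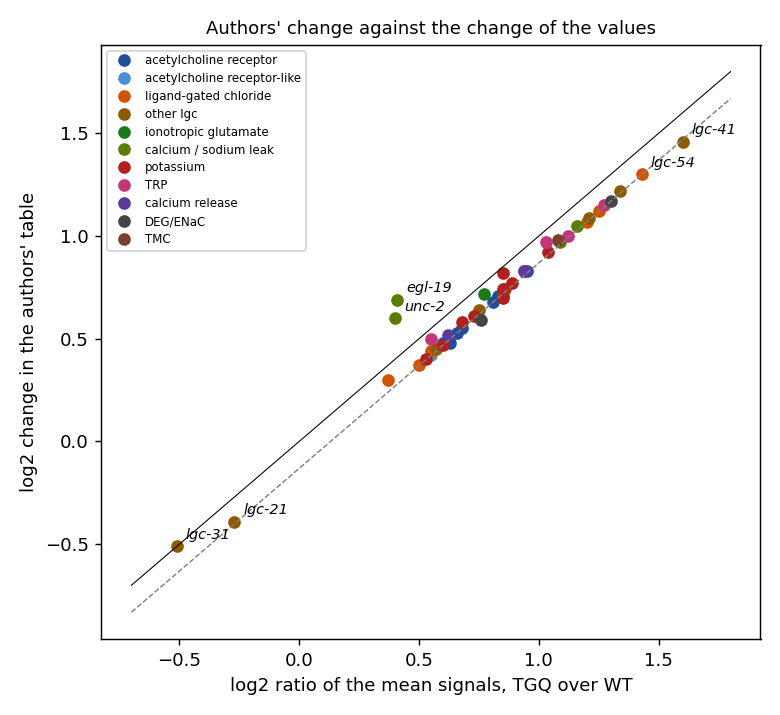
Log2 change in the authors' deposited table against the log2 ratio of the mean signals for the ion channel genes, coloured by class; cng-3, at 3.58 on the vertical axis, lies outside the range and is left out. The solid line marks equality. The dashed line marks the median difference of -0.131 over the 3716 genes of the table with both group means at least 5. Most points lie near the dashed line, with egl-19 and unc-2 above the line of equality and lgc-31 on it.

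unc-77, which encodes a sodium leak channel of the NALCN type, did not pass the filter. Its partner genes were measured: unc-79 and unc-80, whose products are needed for the leak channel, were called higher with log2 changes of 0.35 and 0.51, as was unc-36, an auxiliary calcium channel subunit gene, with 0.52. For unc-36 and unc-79 too the authors' deposited log2 change, 0.90 and 0.61, lay above that of the signals, whose means were 1.5 and 1.44 times as high in TGQ. The cause was not tested.

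The table listed 11 of 25 annotated genes of voltage-gated, calcium-activated and inward-rectifier potassium channels, 9 of them members. All 9 members were higher in TGQ in the authors' deposited table, and the 8 tested were all called. kvs-5, a voltage-gated potassium channel gene, read 8.58, 6.85 and 7.92 in WT and 15.86, 15.91 and 16.32 in TGQ. The groups were far apart relative to their spread, with a mean signal 2.06 times as high and a log2 change of 0.96 (SE 0.13), and kvs-5 had the smallest adjusted p of the channel genes (0.000177, limma). shl-1, the gene of the A-type channel of the Kv4 family, read 2.48, 1.54 and 1.68 in WT and 3.79, 3.09 and 3.66 in TGQ. No values overlapped, and it rose by a log2 change of 0.65 (SE 0.15, limma adjusted p = 0.00383). exp-2, whose channel ends the action potentials of pharyngeal muscle, was at 2.99, 2.56 and 3.05 in WT and 4.15, 5.66 and 4.49 in TGQ. The log2 change was 0.57 (SE 0.14, limma adjusted p = 0.00481).

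The other potassium channel genes tested rose by 0.42 to 0.53 on the log2(signal + 1) scale, which understates the genes of low signal. With 0.1 added, the log2 changes were 0.80 for kvs-1 and 0.79 for egl-2. They were 0.65 for shw-1, 0.59 for slo-1 and 0.52 for unc-103. The values that follow are those with 1 added. shw-1, of the Kv3 family, rose by 0.53 on the log2 scale, and slo-1, the gene of the large-conductance calcium-activated channel, by 0.49. egl-2 and unc-103, of the EAG and ERG families, rose by 0.45 and 0.43, and kvs-1 by 0.42. Both egl-2 and kvs-1 passed the filter only with their TGQ values. The calls of unc-103 and kvs-1 were lost without TGQ replicate 2 (adjusted p = 0.0529) and without WT replicate 3 (adjusted p = 0.061). kqt-1, of the KCNQ family, lay under the filter. Exons of clec-266 and aexr-2 on the opposite strand overlap its 2717 exon bases by 404, again a sum over both neighbours.

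TRP channels serve in thermal, chemical and mechanical sensing and in ion uptake. The table listed 9 of 22 annotated TRP channel genes, 5 of them members. All 5 members were higher in TGQ in the authors' deposited table, and the 3 tested were called. trpa-1 encodes a cold-sensitive channel known for extending lifespan at low temperature, and it read 2.63, 1.66 and 2.21 in WT and 5.36, 4.33 and 4.47 in TGQ. Its lowest TGQ value lay clearly above its highest WT value, the mean signal was 2.18 times as high, and the log2 change was 0.86 (SE 0.15, limma adjusted p = 0.000905). trp-2, of the TRPC family, stood at 1.84, 0.97 and 1.36 in WT and at 3.26, 2.8 and 2.43 in TGQ. The log2 change was 0.69 (SE 0.16, limma adjusted p = 0.00362) and the groups did not overlap, although trp-2 passed the filter only with its TGQ values. gon-2, a TRPM channel gene needed for gonad development and for magnesium uptake by the intestine, read 12, 5.94 and 7.45 in WT and 13.29, 13.23 and 10.57 in TGQ. WT replicate 1 lay above TGQ replicate 3, and the log2 change was 0.54 (SE 0.22, limma adjusted p = 0.0381), or 0.80 without WT replicate 1 (adjusted p = 0.000904).

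Channels that release calcium from internal stores were represented by both of the worm's main release channels. unc-68 encodes the ryanodine receptor of muscle and read 6.56, 3.36 and 4.38 in WT and 10.83, 9.91 and 6.78 in TGQ. TGQ replicate 3 lay just above WT replicate 1, and the log2 change was 0.83 (SE 0.22, limma adjusted p = 0.00709). itr-1 encodes the inositol trisphosphate receptor, which paces defecation and ovulation, and read 11.08, 4.6 and 5.66 in WT and 12.28, 10.97 and 9.57 in TGQ. WT replicate 1 lay above TGQ replicates 2 and 3, so the groups overlapped, and the log2 change of 0.63 (SE 0.25, limma adjusted p = 0.0381) was 0.96 without WT replicate 1 (adjusted p = 0.000313). The calls of gon-2 and itr-1 were lost with the authors' scaling (adjusted p of 0.0852 and 0.075). Without WT replicate 2, the lowest WT sample for both, the adjusted p was 0.145 for gon-2 and 0.152 for itr-1, and it was 0.1 and 0.11 without WT replicate 3, 0.0875 and 0.0917 without TGQ replicate 1, and 0.0959 and 0.0731 without TGQ replicate 2.

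Members among the genes of mechanically gated channels were also higher, and the table listed 7 of 30 annotated DEG/ENaC genes. tmc-1 encodes a transmembrane channel-like protein and read 1.91, 1.36 and 1.76 in WT and 3.41, 3.92 and 3.31 in TGQ. All TGQ samples were above all WT samples, and the mean signal was 2.12 times as high, with a log2 change of 0.77 (SE 0.13, limma adjusted p = 0.000849). unc-105, a degenerin gene of muscle, read 3.7, 2.4 and 2.67 in WT and 4.67, 6.08 and 4.1 in TGQ. The groups were apart, with a log2 change of 0.60 (SE 0.17, limma adjusted p = 0.00954).

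The 9 genes under the filter were mec-4, osm-9, trp-1, cng-3, lgc-38, lgc-10, lgc-41, unc-77 and kqt-1, all higher in TGQ in the authors' deposited table and all with TGQ signals above their WT signals. They had to differ to be listed, and their low values leave their fold changes imprecise. Fitted with the whole table and no filter, each was called higher, with adjusted p-values from 0.000758 for cng-3 to 0.0195 for trp-1 by limma, against 45.7% of all genes called higher in that fit. The largest ratio was that of cng-3, a cyclic nucleotide-gated channel gene of sensory neurons, which read 0.02, 0.05 and 0.06 in WT and 0.63, 0.44 and 0.62 in TGQ. Its mean signal was 13 times as high, from WT values close to the 2-decimal resolution of the table. mec-4, the core channel subunit of the touch receptor neurons, went from 0.29 ± 0.0794 to 0.713 ± 0.175 (SD, n = 3). osm-9, a TRPV channel gene of olfactory and nociceptive neurons, went from 0.45 ± 0.0557 to 1.09 ± 0.188.

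Channel genes outside the membership rule went largely the same way. Of the 45 genes with only a narrower ion channel term, 41 were tested, 31 were called higher, 6 lower and 4 were not called. Their median log2 change was 0.52, and over all genes tested 45.6% were called higher and 44.6% lower. Among the twk potassium leak channel genes, 7 of 9 tested were called higher and 1 lower. twk-18, which encodes a muscle leak channel, rose by a log2 change of 0.69, while twk-5 fell by 0.69 on the log2 scale. Of the DEG/ENaC genes with a sodium channel term, all 4 tested were called higher, among them del-6 with a log2 change of 0.94 and acd-1 with 1.20. The Piezo channel gene pezo-1 rose by 0.52 on the log2 scale, and gtl-1, the TRPM partner of gon-2 in the intestine, by 0.92, with WT replicate 1 at 6.68 against 2.83 and 3.86. The gene of the mitochondrial calcium uniporter, mcu-1, fell by 0.34 on the log2 scale, and spe-41, a TRPC channel gene of sperm that is also on the sperm marker list, fell by 0.36 (adjusted p of 0.0267, and 0.0509 without WT replicate 1).

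Partners of the channels were listed by name. For the assembly and clustering of acetylcholine receptors, 7 of 17 annotated genes were in the table. All 7 were called higher, against 45.6% of all genes tested, with a median log2 change of 0.58. ric-3, the chaperone gene of receptor assembly, rose by a log2 change of 0.57. lev-9 and lev-10, which cluster receptors at the neuromuscular junction, rose by 1.00 and 0.47, and madd-4, which positions the synapses, by 0.69. Of 14 potassium channel partners 3 were in the table, 2 called higher and 1 lower. The lower gene was mps-3, an auxiliary subunit gene, which fell by 0.96 on the log2 scale. None of the 8 listed glutamate receptor partners was in the table. Of the stomatin-like and mechanosensory partners 2 of 16 were in the table, mec-1 and mec-12, and both were called higher.

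Neuron and muscle markers moved in the same direction as most channel genes, while oocyte, eggshell and sperm markers moved the other way. Over all genes tested, 45.6% were called higher and 44.6% lower. Of 24 listed neuron markers 9 were in the table and all 9 were called higher, with a median log2 change of 0.64 (0.42 to 0.75), while their summed signal ranged from 70.1 to 92.9 in WT and from 128 to 133 in TGQ. Of 16 muscle markers 7 were in the table and all 7 were called higher, with a median of 0.66 (0.30 to 0.99). Their summed signals were 277 to 329 in WT and 388 to 458 in TGQ. In that sum unc-52, with a mean of 140 in WT and 172 in TGQ, rose least. For 2 of the 7, unc-22 and unc-89, the groups overlapped, with WT replicate 1 above TGQ replicate 3. All 16 oocyte and eggshell markers in the table were called lower, with summed signals of 1267 to 1717 in WT and 275 to 425 in TGQ, as were all 15 sperm markers, with 2760 to 3333 in WT and 951 to 1104 in TGQ. Of 8 intestine markers 7 were called lower, 6 of them yolk protein genes, while 4 of 7 hypodermis markers were called higher and 2 lower, and 5 of 6 excretory cell markers higher and 1 lower. The part of these shifts in the rise of the channel genes was not tested. None of the neuron, muscle or germline markers in the table was at 0 in any sample, and no channel gene described above as a member stood on a marker list.

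**Figure D5:**
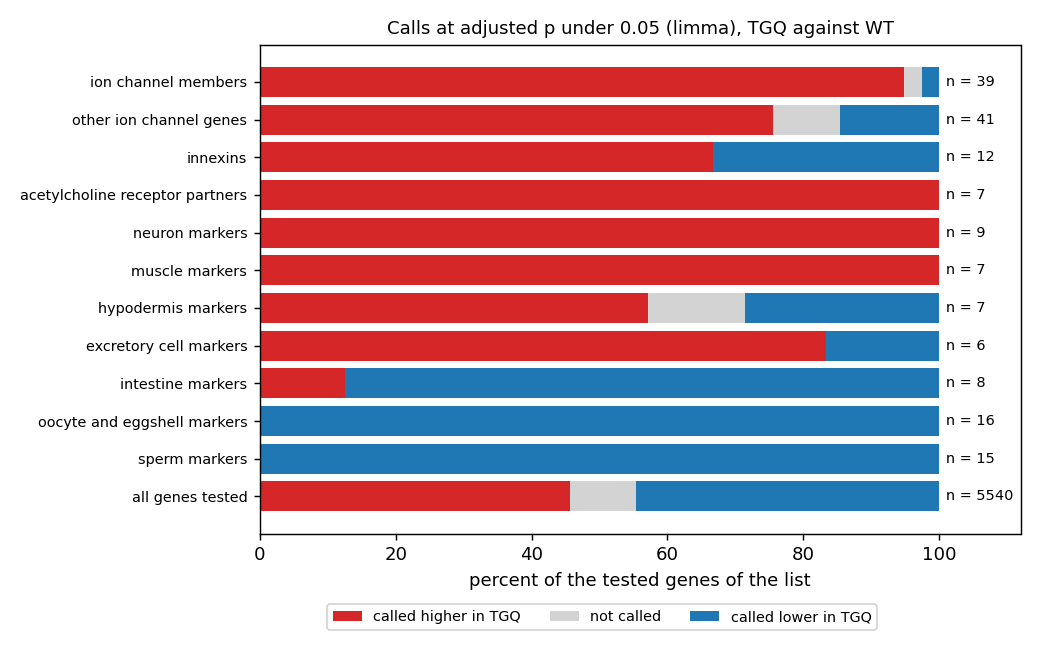
Share of the tested genes of each list that limma called higher in TGQ (red), lower (blue) or did not call (grey) at an adjusted p under 0.05, with the number tested beside each bar. The 39 ion channel genes stand at 37 called higher and 1 lower, near the neuron and muscle markers, while all genes tested split into 45.6% higher and 44.6% lower.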

How the data were processed

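Polyadenylated RNA of whole L4 animals was sequenced as paired 150-base reads from TruSeq libraries, per the labels' protocols. The tools were TopHat, TopHat2 and RSEM, per the submitters' processing notes, which give no version and no order. The sources used here name neither the genome build, the annotation and the strand setting of the counting nor the tool of the authors' test. The deposited signal per gene and sample has 2 decimals and is not a read count. No step common to the low signals was found (16 to 19 of the 19 possible hundredths below 0.2 occur in each sample), so the depth behind the values is unknown and counting error could not be computed. The authors also deposited group means of the signal, a fold change (the ratio of TGQ to WT), its log2, and a p-value with an adjusted p-value.

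Groups and replicate numbers come from the sample titles. Genes with a signal of 1 or more in 3 or more samples were kept. On their log2(signal + 1) a linear model with a group term alone was fitted in limma 3.58.1 (R 4.3.3), using a trended, robust eBayes step and Benjamini-Hochberg adjustment over all 5540 genes tested. The fit was also run on simulated data in which few genes changed, whereas 90.2% of the genes tested here were called. That run checked the code and does not give the error rate of these calls. Same-numbered samples did not deviate together in every pair (correlations of 0.247, -0.0115 and 0.16), and differently numbered ones had correlations of -0.234 to 0.165. With 3 samples per group these values cannot decide whether the numbers pair the samples. The reported fit treats the samples as unpaired, and a fit with a replicate block is among the alternatives. Channel classes, partner lists and markers were set by gene name, with names matched to identifiers through the annotation tables. Locations and exon overlaps come from Ensembl release 115 of WBcel235. The members and lists were chosen with earlier results of these data known. Values in every sample are given for the 3 largest called changes with separate groups and the gene of highest listed mean signal in each class (a rule for choosing genes, not a comparison of their levels), for the 5 largest rises, and for the 2 falls. Alternatives were another added constant, no filter, the authors' scaling (TGQ shifted in log2 by the median difference between the deposited change and the signals), quantile normalization, a replicate block, plain eBayes, and leaving out each sample.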

Additional observations from a re-analysis of the deposited data

How the results depend on the processing

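None of the 39 tested channel genes changed direction in any of the 12 alternatives (the 9 under the filter were fitted only without it), and 29 of the 37 higher calls held in all of them. The 8 that did not were acr-24, egl-19, gon-2, itr-1, kvs-1, unc-103, unc-2 and unc-49. With 0.1 added in place of 1, the median log2 change was 0.74 and the counts were 37 higher and 1 lower. With the authors' scaling, which moves the median of all genes from -0.22 to -0.35, the counts were 32 higher and 2 lower and the median was 0.42, which is 0.77 above that of all genes, against 0.76 in the reported fit and 0.67 after quantile normalization. With the authors' scaling 41.4% of all genes were called higher and 51.9% lower. Without the filter 46 of 48 were called higher and 1 lower. Leaving out single samples gave 32 to 37 higher calls, 0 to 2 lower calls and medians of 0.47 to 0.58, with 41.1% to 45.5% of all genes called higher. The lower calls were lgc-31 and lgc-21 without WT replicate 2. There were 0 by limma without WT replicates 1 or 3 or any one TGQ replicate, and at an unadjusted p under 0.05 these held 0, apart from 1 without TGQ replicate 2. With the replicate number as a block the counts were 37 and 1 and the median 0.54, as in the reported fit. The cause of the lost calls was not tested. Depth is unknown, and the selection of the table leaves channel genes outside it without a value.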

Other observations

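Chloride channel genes of the bestrophin family, none of which carries the general channel term, went both ways. Of the 9 with a chloride channel term, 6 were called higher in TGQ and 2 lower, beside 45.6% and 44.6% of all genes tested, and best-18 was not called (limma). Among the tested channel genes these were the largest falls on the log2(signal + 1) scale. best-20 read 4.74, 2.96 and 3.88 in WT and 1.24, 0.69 and 0.69 in TGQ, a log2 change of -1.37 (adjusted p = 0.000159), and best-21 read 9.49, 10.39 and 10.48 in WT and 3.91, 3.92 and 3.77 in TGQ, a log2 change of -1.19 (adjusted p = 4.04e-05). The potassium leak channel gene twk-45, which lay under the filter, had a similar ratio of mean signals, 0.355 against 0.382 for best-21. The opposite was seen for best-17, which rose by a log2 change of 0.78, and for best-14, a family member without that term, which read 18.91, 17.81 and 21.21 in WT and 37.53, 38.58 and 37.41 in TGQ.

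Gap junction genes of the innexin family split as well. Of 25 annotated innexin genes 12 were in the table, 8 called higher and 4 lower, beside 45.6% and 44.6% of all genes tested. The lower genes were inx-8, inx-9, inx-14 and inx-22, whose products are known to form the junctions between the germ line and the somatic gonad, with log2 changes of -0.80, -0.33, -0.66 and -0.98. Without WT replicate 1 the change of inx-9 was -0.24, with a limma adjusted p of 0.0792. The higher genes included unc-7 and unc-9, which couple neurons and muscle cells, with log2 changes of 0.76 and 0.46, and inx-5, inx-12 and inx-13, with 0.86, 0.70 and 0.76.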
